A study of Mus musculus with 5 samples.

Results

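*Nppc* encodes the precursor of C-type natriuretic peptide, a small secreted peptide that acts on cells close to its source. *Npr1*, *Npr2* and *Npr3* encode the 3 natriuretic peptide receptors. These 4 genes were taken by symbol from the 27998 genes of the count matrices, and all 4 were present. The family was chosen by the *Nppc* UMIs of hormone-sensing cells, which were known to differ with progesterone and with PBDEs. They were described in the epithelial, stromal and vascular compartments of 5 single-cell RNA libraries from mouse mammary gland, 1 library for each of 5 groups.

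All mice were BALB/cj females that had been ovariectomized and were treated 20 weeks later for 1 week, and the labels give an age of 30 weeks. OVX received vehicle and control food, OVX_E2 received 17β-estradiol at 1 µg per animal, and OVX_E2_P4 received the same estradiol with progesterone at 0.1 mg per animal. OVX_E2_PBDE and OVX_E2_P4_PBDE matched the last 2 groups but ate food carrying polybrominated diphenyl ethers (PBDEs), flame retardants, with 7.1 mg of BDE-47, 0.4 mg of BDE-100 and 0.9 mg of BDE-153 in each kg of food. The fourth mammary gland was dissociated whole, so that the libraries hold epithelium together with stroma, and the number of mice behind each library is not given in the sources used here. With 1 library per group there is no test: ratios carry exact 95% intervals that cover counting error only, and any difference between animals or preparations lies outside them.

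Natriuretic peptides signal through receptors that are themselves enzymes. C-type natriuretic peptide binds the receptor encoded by *Npr2*, and the atrial and B-type peptides bind the receptor encoded by *Npr1*. Both receptors are guanylyl cyclases that make the second messenger cGMP inside the target cell. The receptor encoded by *Npr3* has no cyclase domain and takes up the peptides, so that they are cleared. C-type natriuretic peptide is best known as a local signal in the growth plate of bone, in the ovarian follicle and in vessel walls. The luminal epithelium of the mammary gland holds hormone-sensing cells (L-Hor), which carry the estrogen and progesterone receptors, and alveolar cells (L-Alv), which make milk proteins, and both are surrounded by contractile basal cells.

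The 5 libraries held between 2233 and 3536 barcodes and between 19982067 and 42012988 unique molecular identifiers (UMIs, 1 per captured RNA molecule), and 14317 of 14344 barcodes passed the filters. Barcodes were clustered within each library, and clusters were named from marker genes. Over all libraries this gave 2538 L-Hor-like, 1082 L-Alv-like, 407 basal-like, 310 proliferating-like, 7257 fibroblast-like, 234 endothelial-like and 437 hematopoietic-like barcodes. A further 1955 barcodes carried L-Hor and L-Alv markers together and were kept apart as "both luminal". Their median depth per library was 15306 to 25552 UMIs, against 5540 to 10460 in L-Hor-like barcodes, and whether they hold 2 cells in a droplet or single cells of mixed identity was not tested. The endothelial-like clusters also carried pericyte markers, so that cells of both kinds may be included. OVX had only 92 L-Hor-like barcodes, and the basal-like cluster of OVX_E2_P4_PBDE carried luminal genes (*Areg*, *Cited1*, *Prlr* and *Ly6d*) at 11.3% to 22.2% of their L-Hor level. Pairs of libraries shared between 3 and 15 barcode sequences. No label names a batch. The library numbers in the names of the deposited matrices are consecutive for the 2 PBDE libraries and consecutive, further on, for the other 3, so an effect of PBDEs cannot be told apart from that of any batch that ran with this numbering.

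The promoter of *Nppc* is shown because the main result concerns this gene. In GENCODE M21 (GRCm38, the same assembly as mm10) *Nppc*, ENSMUSG00000026241, lies on the reverse strand of chromosome 1 from 86666291 to 86670571 with 3 exons, and no other gene overlaps it. The 250 bases before the RefSeq start of the gene (GRCm38.p6, chr1:86670574-86670823, reverse strand, 5′ to 3′) are given with a GC box and a TATA box in capitals.
Nppc: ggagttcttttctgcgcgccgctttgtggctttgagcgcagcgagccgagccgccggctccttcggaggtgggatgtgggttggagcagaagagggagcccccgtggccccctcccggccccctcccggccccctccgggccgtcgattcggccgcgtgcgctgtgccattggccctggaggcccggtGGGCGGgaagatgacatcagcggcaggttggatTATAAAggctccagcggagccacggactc
The GC box GGGCGG begins 62 bases before the start and was present in 32.7% of 32851 promoter windows of this length. The TATA box TATAAA begins 29 bases before the start and was present in 12.4% of windows. On either strand the window did not hold the letters of a full progesterone or glucocorticoid receptor site (GNACA and TGTNC with 3 bases between them, 0.387% of windows), of its half-site TGTTCT (16.1%) or of a full estrogen receptor site (GGTCA and TGACC with 3 bases between them, 0.0639%). The AP-1 letters TGANTCA (6.75%), the CRE letters TGACGTCA (1.55%) and the CRE half-site TGACG (17.8%) were absent as well. A match or its absence describes these letters in this window alone.

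The level of *Nppc* in L-Hor-like barcodes was high in 1 library, OVX_E2_P4. UMIs were summed over the barcodes of a compartment and divided by the compartment's total, as counts per 1000000 (CPM). L-Hor-like barcodes held 347 *Nppc* UMIs in OVX_E2_P4, against 9 in OVX, 13 in OVX_E2, 28 in OVX_E2_PBDE and 7 in OVX_E2_P4_PBDE. From OVX through OVX_E2, OVX_E2_PBDE and OVX_E2_P4 to OVX_E2_P4_PBDE, the levels in CPM were 11.6 (95% Poisson interval 5.32 to 22.1), 2.58 (1.37 to 4.41), 3.93 (2.61 to 5.68), 47.1 (42.2 to 52.3) and 1.92 (0.77 to 3.95), and other series of 5 values follow this order. The interval of OVX_E2_P4 lay above those of the other 4 libraries, and the intervals of OVX_E2, OVX_E2_PBDE and OVX_E2_P4_PBDE overlapped one another.

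**Figure D1:**
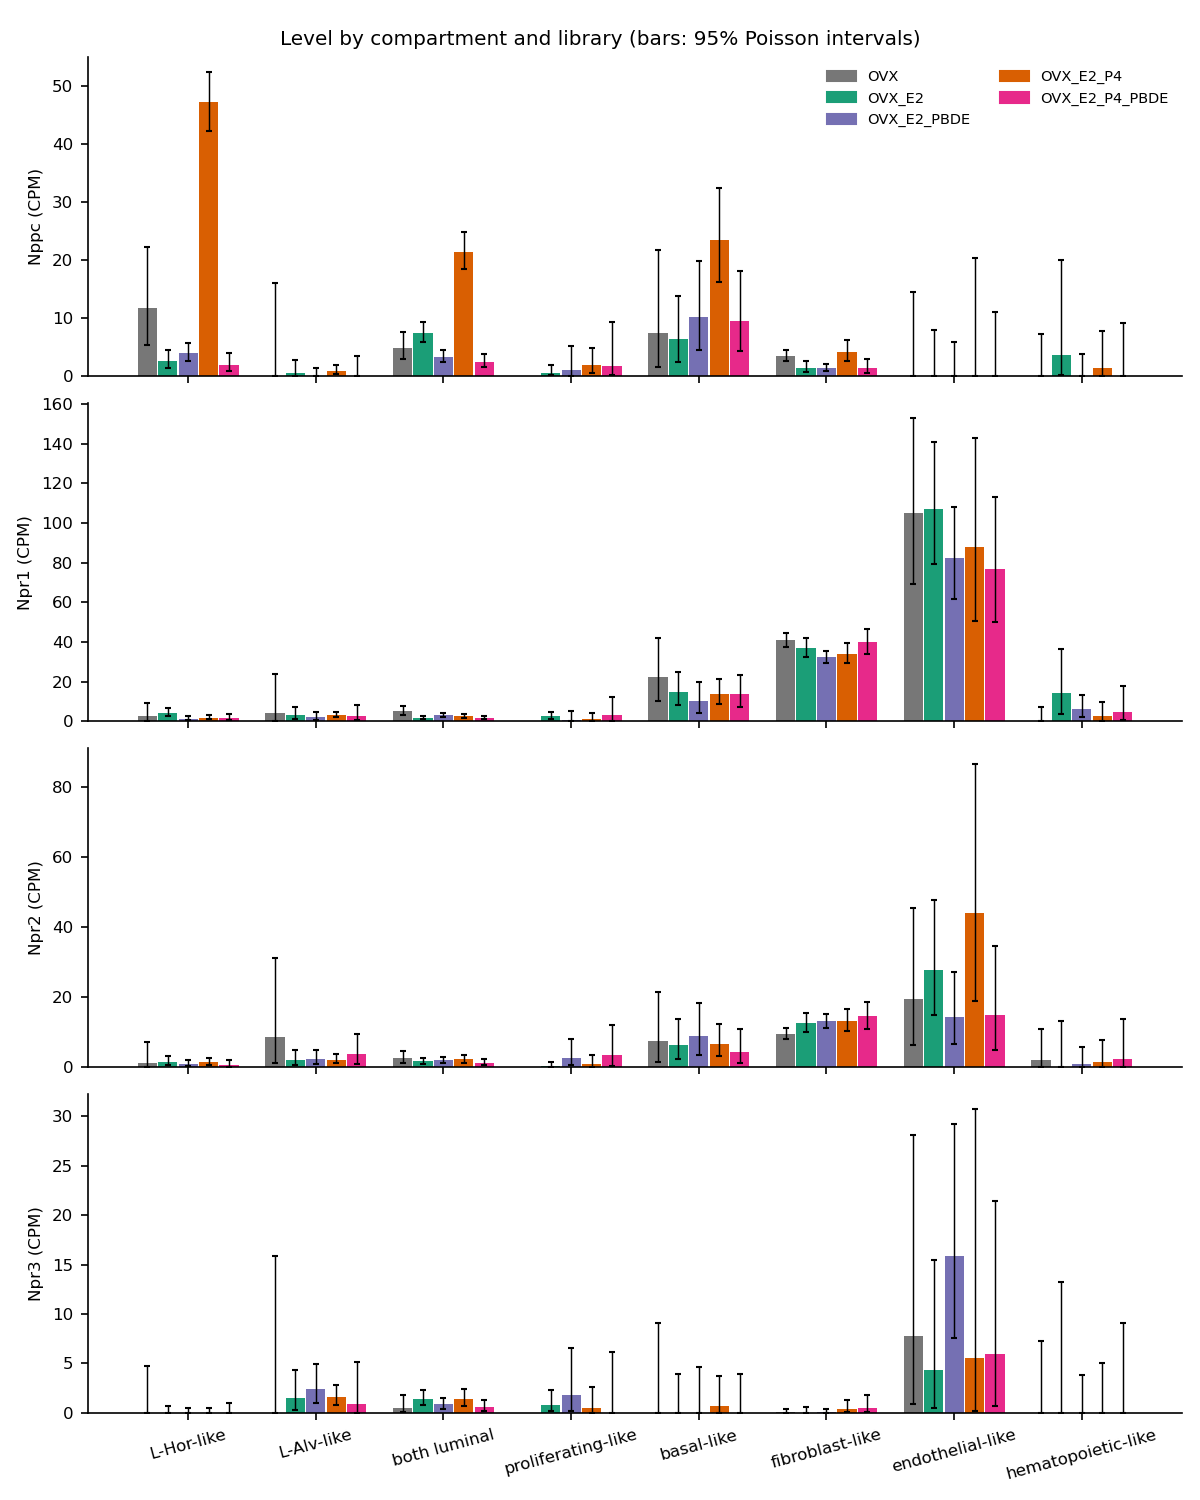
Levels of *Nppc*, *Npr1*, *Npr2* and *Npr3* (y axis, CPM from summed UMIs, 1 scale per gene) by compartment (x axis) and library (colour), with 95% Poisson intervals that cover counting error only. *Nppc* stood at 47.1 CPM in L-Hor-like barcodes of OVX_E2_P4, *Npr1* was highest in endothelial-like barcodes in every library (77 to 107 CPM), and *Npr3* had no UMI in L-Hor-like barcodes.

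Against OVX_E2, the *Nppc* level of L-Hor-like cells was 18.3-fold higher in OVX_E2_P4 (10.5 to 34.6), the contrast that adds progesterone. Against OVX_E2_P4 it was lower in OVX_E2_P4_PBDE, with a ratio of 0.0407 (0.0162 to 0.0848), the contrast that adds PBDEs in the presence of progesterone. *Nppc* was chosen by these differences, so they are given as a description. Of all genes that reached 50 UMIs in the 2 libraries together, 0.839% were at least 2-fold higher and 0.613% at least 2-fold lower in the first contrast, and 0.64% were higher and 2.13% lower in the second. *Nppc* was the only 1 of the 4 members with that many UMIs in either, and it was among the 78 higher genes of the first and the 190 lower genes of the second. It had 13 UMIs in OVX_E2 and 7 in OVX_E2_P4_PBDE, so it passed this limit only through the 347 of OVX_E2_P4. Its place among those genes thus follows from the choice.

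The other 3 contrasts rested on few *Nppc* UMIs. OVX_E2 to OVX gave 0.221 (0.0875 to 0.587), from 13 and 9 UMIs. OVX_E2_PBDE to OVX_E2 gave 1.52 (0.764 to 3.2), and OVX_E2_P4_PBDE to OVX_E2_PBDE, the contrast that adds progesterone in the presence of PBDEs, gave 0.488 (0.18 to 1.14). The last 2 intervals include 1. No member reached 50 UMIs in these contrasts, in which 1.74% of genes were higher and 7.76% lower, 0.393% higher and 1.21% lower, and 0.979% higher and 0.725% lower, in the order given.

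The levels of the receptors of the given hormones spanned a narrower range over libraries than *Nppc*, which was itself chosen for its differences between libraries. *Pgr*, the progesterone receptor, stood at 122, 144, 122, 138 and 147 CPM in L-Hor-like barcodes from OVX to OVX_E2_P4_PBDE, and *Esr1*, the estrogen receptor, at 115, 63.3, 48.7, 66.9 and 50.4 CPM. *Pgr* was highest in OVX_E2_P4_PBDE. *Esr1* was highest in OVX and, among the libraries given estradiol, in OVX_E2_P4. Whether these levels bear on *Nppc* was not tested.

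*Nppc* was found in a minority of L-Hor-like barcodes, and many of these held several UMIs. In OVX_E2_P4, 65 of 760 L-Hor-like barcodes had a *Nppc* UMI, 8.55% (95% Clopper-Pearson interval 6.66 to 10.8). The share was 3.26% in OVX (0.678 to 9.23), 1.04% in OVX_E2 (0.34 to 2.42), 1.31% in OVX_E2_PBDE (0.569 to 2.57) and 0.836% in OVX_E2_P4_PBDE (0.272 to 1.94). In fibroblast-like barcodes, whose median depth of 4252 to 7031 UMIs was below the 5540 to 10460 of L-Hor-like barcodes, the share was 1.9% in OVX_E2_P4 and 0.417% to 0.745% in the other 4. When every barcode was thinned to 3000 UMIs, the L-Hor-like shares were 2.17%, 0%, 0.821%, 6.05% and 0.502%, from OVX to OVX_E2_P4_PBDE. Outside OVX_E2_P4, the intervals of the L-Hor-like and fibroblast-like shares of a library overlapped.

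**Figure D2:**
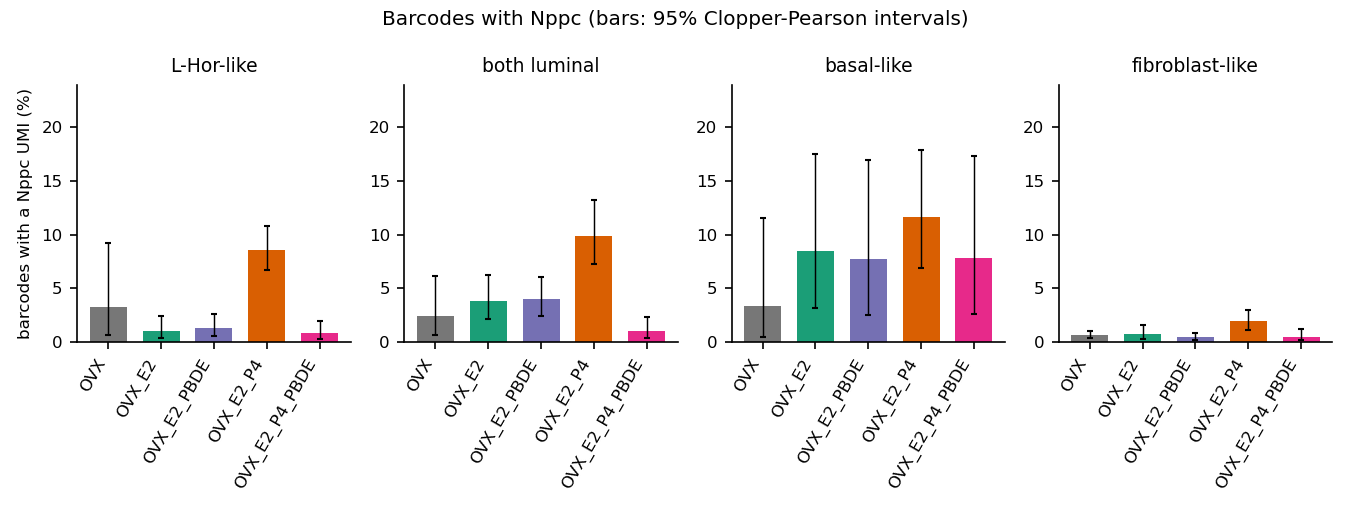
Share of barcodes with at least 1 *Nppc* UMI (y axis, %) in each library (x axis) for L-Hor-like, both luminal, basal-like and fibroblast-like barcodes, with 95% Clopper-Pearson intervals. Without matching for depth, OVX_E2_P4 had the highest share in each of the 4 panels, 8.55% in L-Hor-like and 9.91% in both luminal barcodes. After thinning to 3000 UMIs it was highest in 3, and in basal-like barcodes it stood at 5.44% beside 5.63% in OVX_E2.

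UMIs were unevenly spread over barcodes. In OVX_E2_P4, 35 L-Hor-like barcodes held 3 or more *Nppc* UMIs, 11 held 10 or more, and the highest held 29, which was 8.36% of the compartment's *Nppc*. Elsewhere single barcodes carried much of the sum. One barcode held 5 of 9 UMIs in OVX and another 8 of 13 in OVX_E2, or 55.6% and 61.5% of the total. The highest barcode held 9 UMIs in OVX_E2_PBDE and 2 in OVX_E2_P4_PBDE. Poisson intervals treat UMIs as independent and are too narrow for such a spread. Without the highest barcode of each library, OVX_E2_P4 to OVX_E2 was 43.4 and OVX_E2_P4_PBDE to OVX_E2_P4 was 0.0317.

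L-Hor-like barcodes of all libraries were clustered again without *Nppc*, the other natriuretic peptide and cGMP genes and *Pgr*, which gave 7 subsets. In OVX_E2_P4, 439 of 760 barcodes fell in subset 2, led by *Trim15*, *Dusp2* and *Rgcc*, and held 269 of the 347 *Nppc* UMIs at 65.6 CPM (58 to 73.9). Subset 4, led by *Abhd2* and *Slc39a1*, held 62 UMIs in 8 of its 67 barcodes, at 109 CPM (83.3 to 139). The share of barcodes with a UMI was 11.9% there (5.3 to 22.2), beside 11.6% in subset 2 (8.77 to 15). Subset 0, led by *Ccl5* and *Defb50*, held 15 UMIs in 5 of its 112 barcodes, at 12.6 CPM (7.06 to 20.8). Subset 3, led by *Jchain*, *Gadd45b* and the stress gene *Hspa1a*, held 1 UMI in 105 barcodes. *Nppc* was thus uneven among the hormone-sensing cells of this library, with 51 of 65 barcodes that had a UMI in subset 2.

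**Figure D3:**
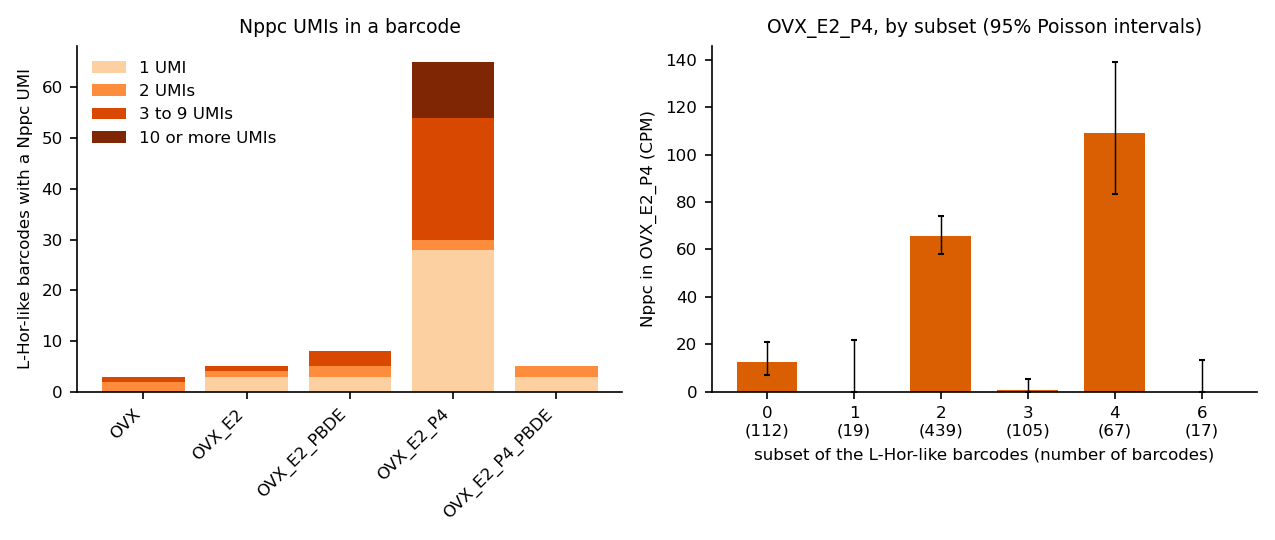
Left, number of L-Hor-like barcodes with a *Nppc* UMI (y axis) in each library (x axis), stacked by the number of UMIs in the barcode; 11 barcodes, all in OVX_E2_P4, held 10 or more. Right, *Nppc* level (CPM, 95% Poisson intervals) in the subsets of the L-Hor-like barcodes of OVX_E2_P4, with the number of barcodes under each. Subset 4 stood at 109 CPM (8 of 67 barcodes with a UMI), subset 2 at 65.6 (51 of 439) and subset 3 at 0.939.

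The subsets were not shared evenly between libraries. Subset 2 had 509 barcodes, of which 439 were from OVX_E2_P4, whereas OVX_E2_P4_PBDE had 322 of its 598 in subset 1 and OVX had 80 of its 92 in subset 5. Levels can be read within the subsets that several libraries shared. In subset 0, *Nppc* stood at 12.6 CPM in OVX_E2_P4, 4.59 in OVX_E2_PBDE (18 UMIs) and 2.98 in OVX_E2_P4_PBDE (3 UMIs), and 0 UMIs were found in 139 barcodes of OVX_E2, which allows up to 2.05 CPM. In subset 4, it stood at 109 CPM in OVX_E2_P4 and 4.08 in OVX_E2 (4 UMIs in 99 barcodes), and 0 UMIs were found in 58 barcodes of OVX_E2_P4_PBDE, which allows up to 8.82 CPM. Among the libraries named, OVX_E2_P4 had the highest level in both subsets. In subset 0 its interval, 7.06 to 20.8, overlapped those of OVX_E2_PBDE (2.72 to 7.25) and OVX_E2_P4_PBDE (0.615 to 8.71). Subset 3 showed no such excess. It held 1 UMI in 105 barcodes of OVX_E2_P4, at 0.939 CPM (0.0238 to 5.23). No UMI was found there in 47 barcodes of OVX_E2, 93 of OVX_E2_PBDE and 63 of OVX_E2_P4_PBDE. Subset 2 held 8 UMIs in 51 barcodes of OVX_E2, all in 1 barcode, and subset 1 held none in 19 barcodes of OVX_E2_P4, which allows up to 17.9 CPM. In subset 1, *Nppc* stood at 7.63 CPM in OVX_E2_PBDE (10 UMIs) and 2.25 in OVX_E2_P4_PBDE (4 UMIs).

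The 5 genes named by likeness had L-Hor-like levels that followed *Nppc* most closely over the 5 libraries, by the root mean square difference of centred log2(CPM + 1) among 9174 genes with at least 100 UMIs in these barcodes. They were the keratin gene *Krt4* (difference 0.75 on the log2 scale), the kynureninase gene *Kynu* (0.861), the exonuclease gene *Trex2* (0.884), *Trim15* (0.898) and the lipid-binding gene *Sec14l4* (0.929). *Krt4* stood at 63.4, 29.5, 24, 90 and 19.7 CPM from OVX to OVX_E2_P4_PBDE, and *Trim15* at 1.29, 2.38, 1.12, 12.6 and 1.37. All 5 were lower in OVX_E2_P4_PBDE than in OVX_E2_P4, as the choice by likeness requires.

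Within OVX_E2_P4, the 65 L-Hor-like barcodes with *Nppc* were set beside the 695 without it, at similar median depths of 8841 and 8982 UMIs. *Trim15* stood at 46.5 CPM (31.1 to 66.7) in those with *Nppc* and 9.48 (7.3 to 12.1) in those without, a ratio of 4.9 (3.05 to 7.71). For *Sec14l4* the ratio was 1.61 (1.15 to 2.21), for *Krt4* 1.48 (1.16 to 1.87), and for *Pgr* 1.33 (1.08 to 1.62), at 178 and 134 CPM. These were 4 of the 11 genes compared, which were *Pgr*, *Esr1* and the genes most like *Nppc* by either measure of likeness in this text. The genes most like *Nppc* were picked from these same data, so the ratios are a description. The share of all genes that were higher in barcodes with *Nppc* was not counted. *Trim15* also leads subset 2, which held 51 of the 65 barcodes with *Nppc*. For the other 7 the interval included 1. *Esr1* gave 1.14 (0.825 to 1.54) and *Padi1* 2.09 (0.714 to 5.09), and *Kynu*, *Trex2*, *Cntfr*, *Glis1* and *Trim29* lay between 0.739 and 0.923. These barcodes come from 1 library and are not replicates.

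In both luminal barcodes *Nppc* was again highest in OVX_E2_P4, with smaller differences. UMIs were 19, 76, 47, 185 and 21 from OVX to OVX_E2_P4_PBDE, or 4.83, 7.37, 3.31, 21.4 and 2.4 CPM. OVX_E2_P4 to OVX_E2 was 2.9 (2.21 to 3.84), against 0.613% of genes at least 2-fold higher. OVX_E2_PBDE to OVX_E2 was 0.449 (0.305 to 0.654), against 0.699% at least 2-fold lower, and OVX_E2_P4_PBDE to OVX_E2_P4 was 0.112 (0.0678 to 0.176), against 0.819%. In L-Hor-like barcodes the ratio for PBDEs without progesterone, 1.52, had an interval that included 1. In OVX_E2 a single both luminal barcode held 30 of the 76 UMIs, 39.5% of the total. The ratios to OVX_E2 include it and were not computed without it. The share of both luminal barcodes with a UMI was 3.78% in OVX_E2 and 3.96% in OVX_E2_PBDE, against 9.91% in OVX_E2_P4.

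*Nppc* per both luminal barcode did not follow the parent compartments alike in every library. In OVX_E2_P4 a both luminal barcode held 0.436 UMIs on average, beside 0.465 for an L-Hor-like and an L-Alv-like barcode added together. In OVX_E2 the values were 0.205 and 0.034, and in OVX_E2_P4_PBDE 0.0426 and 0.0117. In CPM, OVX_E2 was the library with the highest ratio of both luminal to L-Hor-like, at 2.86 (1.58 to 5.62), and OVX_E2_P4 stood at 0.455 (0.378 to 0.545). The both luminal values of OVX_E2 include the barcode that held 39.5% of its UMIs.

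L-Alv-like and endothelial-like barcodes had little or no *Nppc*. L-Alv-like barcodes held 0, 1, 0, 5 and 0 UMIs from OVX to OVX_E2_P4_PBDE. In OVX_E2_P4 the L-Hor-like level was 60.4-fold that of L-Alv-like barcodes (25.7 to 187). No UMI was found in 234 endothelial-like barcodes, which allows up to 1.6 CPM, and 2 were found in hematopoietic-like barcodes.

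Basal-like barcodes had *Nppc* in every library, and again most in OVX_E2_P4. UMIs were 3, 6, 8, 35 and 9 from OVX to OVX_E2_P4_PBDE, in 2, 6, 5, 17 and 5 barcodes, and levels were 7.4, 6.32, 10.1, 23.3 (16.2 to 32.4) and 9.47 CPM. OVX_E2_P4 to OVX_E2 was 3.68 (1.53 to 10.7) and OVX_E2_P4_PBDE to OVX_E2_P4 was 0.407 (0.172 to 0.863). The basal-like level of *Nppc* was 49.5% of the L-Hor level in OVX_E2_P4 and 63.5% to 495% in the other libraries. For 4 L-Hor markers, *Areg*, *Cited1*, *Prlr* and *Ly6d*, it was 4.37% to 6.48% in OVX_E2_P4 and 0.247% to 22.2% in the others. Outside OVX_E2_P4 the percentages for *Nppc* rest on 3 to 9 basal-like and 7 to 28 L-Hor-like UMIs. The part of L-Hor RNA in the basal-like *Nppc* level was not tested.

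In fibroblast-like barcodes *Nppc* stood at or below 4.09 CPM and was again highest in OVX_E2_P4. UMIs were 46, 9, 19, 23 and 5, or 3.35, 1.35, 1.34, 4.09 and 1.25 CPM, from OVX to OVX_E2_P4_PBDE. OVX_E2 to OVX was 0.402 (0.173 to 0.831), against 1.35% of genes at least 2-fold lower, and the 46 UMIs of OVX lay in 16 of 2565 barcodes. A single barcode held 34.8% of them, and 2 barcodes held 10 or more each. The share of barcodes with a UMI was not lower in OVX_E2, at 0.745% against 0.624% in OVX. OVX_E2_P4 to OVX_E2 was 3.04 (1.36 to 7.47) and OVX_E2_P4_PBDE to OVX_E2_P4 was 0.305 (0.0907 to 0.821), from 9, 23 and 5 UMIs in OVX_E2, OVX_E2_P4 and OVX_E2_P4_PBDE. These ratios lay on the same sides of 1 as in L-Hor-like barcodes, and the part of free RNA in them was not tested. The L-Hor-like level was 3.48, 1.91, 2.93, 11.5 and 1.53 times the fibroblast-like level in the same order.

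Ranked by the median of the 5 libraries, *Nppc* was highest in basal-like barcodes (9.47 CPM, range 6.32 to 23.3), then in both luminal (4.83, 2.4 to 21.4), L-Hor-like (3.93, 1.92 to 47.1) and fibroblast-like barcodes (1.35, 1.25 to 4.09). Ranges of all neighbours in this order overlapped. Summed over libraries, L-Hor-like barcodes came first at 16.9 CPM, ahead of basal-like at 13.3, and that place rested on OVX_E2_P4.

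*Npr1*, the cyclase receptor for the atrial and B-type peptides, was a vascular and stromal transcript. *Npr1*, ENSMUSG00000027931, lies on chromosome 3 from 90450591 to 90465866 on the reverse strand with 22 exons, and the antisense gene *Gm16048* overlaps it. Endothelial-like barcodes held 27, 50, 52, 16 and 26 UMIs from OVX to OVX_E2_P4_PBDE, or 105, 107, 82.5, 88.1 and 77 CPM. Fibroblast-like barcodes held 563, 247, 462, 192 and 160 UMIs, or 41, 36.9, 32.6, 34.2 and 40 CPM. The endothelial-like level was 1.93 to 2.9 times the fibroblast-like level in the single libraries and 2.49 times over all (2.11 to 2.91). Basal-like barcodes followed at 10.1 to 22.2 CPM, and the ranges of these 3 compartments over libraries did not overlap.

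In endothelial-like barcodes, 37.9% to 65.9% had a *Npr1* UMI, against 15.2% to 21.7% of fibroblast-like and 1.17% to 3.97% of L-Hor-like barcodes. After thinning to 3000 UMIs the shares were 14.8% to 30.3%, 8.19% to 10.8% and 0% to 1.04%. L-Hor-like levels lay between 1.4 and 4.36 CPM. In these barcodes *Npr1* was lower in OVX_E2_PBDE than in OVX_E2, with a ratio of 0.322 (0.136 to 0.708) from 10 and 22 UMIs. It was also lower in OVX_E2_P4 than in OVX_E2, at 0.435 (0.206 to 0.89). In both luminal barcodes OVX_E2_PBDE to OVX_E2 went the other way, at 1.79 (1.03 to 3.24). Subset 6 of the L-Hor-like barcodes, which was led by fibroblast genes, held 17 of all 55 *Npr1* UMIs of the compartment. Its part in the L-Hor-like ratios was not tested.

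Over whole compartments, *Npr1* ratios between treatments lay near 1 where the gene was high. In fibroblast-like barcodes the ratio was 0.902 (0.773 to 1.05) for OVX_E2 to OVX, 0.925 (0.762 to 1.12) for OVX_E2_P4 to OVX_E2 and 0.881 (0.753 to 1.03) for OVX_E2_PBDE to OVX_E2. With progesterone and PBDEs together it was 1.17 (0.943 to 1.45) against OVX_E2_P4 and 1.23 (1.02 to 1.47) against OVX_E2_PBDE. In endothelial-like barcodes the 5 ratios lay between 0.769 (0.511 to 1.16) and 1.02 (0.627 to 1.7), and each interval included 1. Changes within these bounds were not detectable at this depth.

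*Npr1* spanned a wider range over fibroblast subsets than over libraries. Fibroblast-like barcodes were clustered again without these genes, and 8 subsets were obtained. Summed over libraries, *Npr1* stood at 54.8 CPM in subset 1 (led by *Mrgprg*, 1178 of 1279 barcodes from OVX), 41.4 in subset 0 (*Irf4*, *Agtr2*) and 40.1 in subset 5 (*Krtdap*, *Sbsn*). It was 29.2 in subset 2 (*Hc*, *Mdk*), 25.3 in subset 4 (*Tbata*), 16.8 in subset 3 (*Cxcl14*, *Vtn*, *Smoc2*) and 16.6 in subset 7 (*Crabp1*). Subset 6, led by hemoglobin genes, stood at 36.3 CPM. The 3 subsets with the highest summed *Npr1*, subsets 1, 0 and 5, held 0.795, 0.841 and 0.445 CPM of *Nppc*, and subsets 2, 3 and 4 held 4.58, 5.66 and 6.23, while subsets 6 and 7 held none, which allows up to 1.12 and 2.62 CPM. The place of subset 1 came from pooling: within OVX it stood at 57.1 CPM, below subset 5 at 72.9 and subset 0 at 64.4, and within OVX_E2 at 29.1, below subset 0 at 50.4. The fibroblast-like *Npr1* ratios between treatments also pool these subsets. From OVX to OVX_E2, *Npr1* went from 10.6 to 30.2 CPM in subset 2 and from 72.9 to 37.8 in subset 5. From OVX_E2 to OVX_E2_PBDE it went from 50.4 to 37.4 in subset 0 and from 12.1 to 24.2 in subset 4. In each of these pairs the intervals overlapped. Of the 46 *Nppc* UMIs in OVX fibroblasts, 24 were in subset 3 and 18 in subset 4. The summed *Nppc* levels were pooled as well, and 24 of the 25 UMIs of subset 3 came from OVX. All 11 UMIs of subset 0 came from OVX_E2_P4. In that library *Nppc* stood at 4.77 CPM in subset 0, beside 3.37 in subset 2, 3.7 in subset 3 and 10.6 in subset 4.

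**Figure D4:**
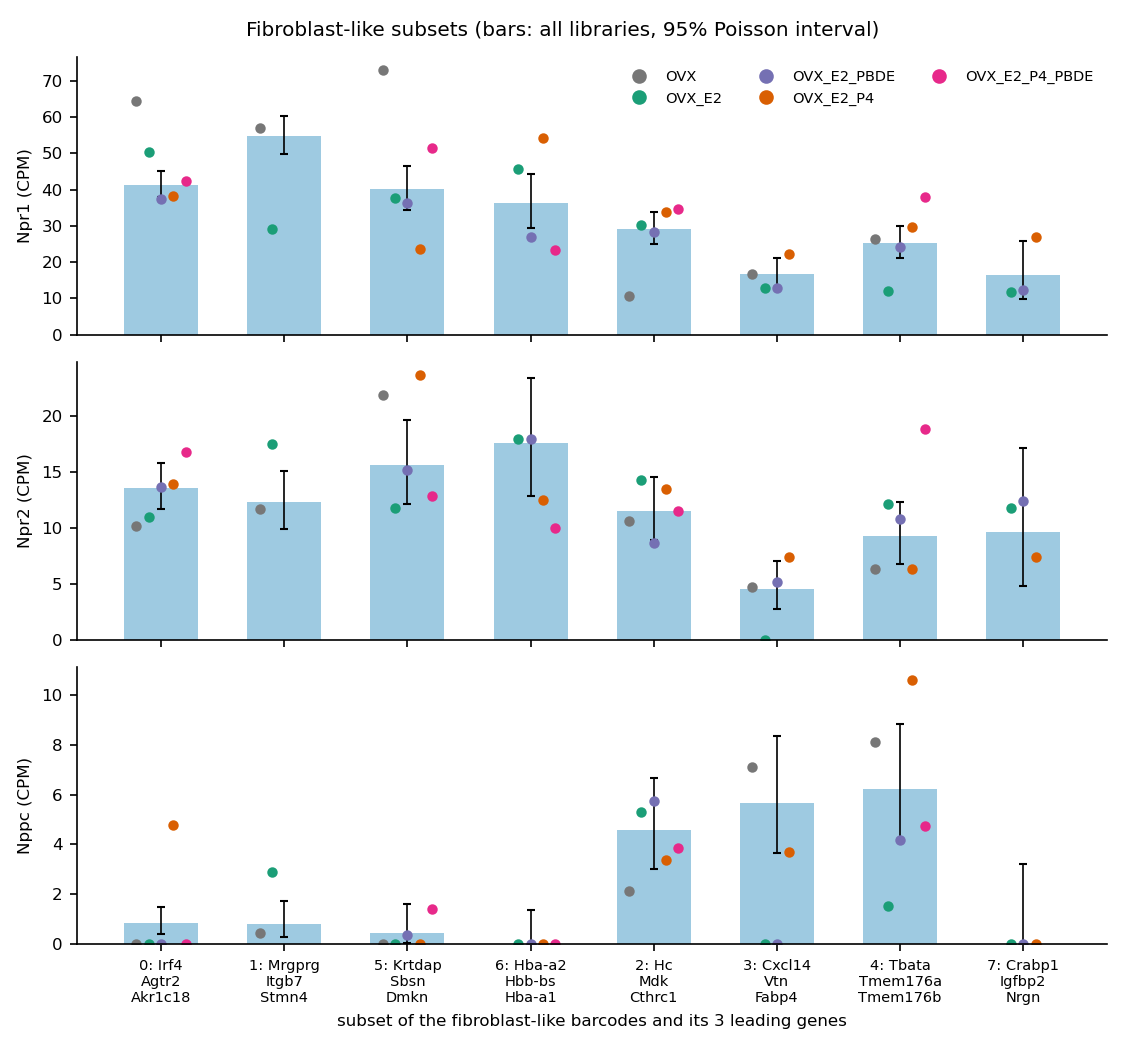
Levels of *Npr1*, *Npr2* and *Nppc* (y axes, CPM) in 8 subsets of fibroblast-like barcodes (x axis, number and 3 leading genes). Bars are sums over libraries with 95% Poisson intervals, points are libraries with at least 30 barcodes in the subset. Summed *Npr1* ran from 54.8 CPM in subset 1, mostly of OVX, to 16.6 in subset 7. Summed *Nppc* was at 4.58 to 6.23 CPM in subsets 2, 3 and 4, at 0.445 to 0.841 in subsets 0, 1 and 5, and without a UMI in subsets 6 and 7.

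*Npr2*, the cyclase receptor for C-type natriuretic peptide, was found in the same compartments. *Npr2*, ENSMUSG00000028469, lies on chromosome 4 from 43631935 to 43651244 on the forward strand with 22 exons, and the antisense gene *Gm12473* overlaps it. Fibroblast-like barcodes held 131, 84, 186, 74 and 58 UMIs from OVX to OVX_E2_P4_PBDE, or 9.54, 12.6, 13.1, 13.2 and 14.5 CPM. Endothelial-like barcodes held 5, 13, 9, 8 and 5 UMIs, or 19.5, 27.9, 14.3, 44.1 and 14.8 CPM. Over all libraries the endothelial-like level was 1.77 times the fibroblast-like level (1.25 to 2.45), but their ranges over libraries overlapped. Basal-like barcodes stood at 4.21 to 8.81 CPM, below the fibroblast-like range.

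L-Hor-like barcodes, which in OVX_E2_P4 held the highest *Nppc* level, had little of its receptor in any library. *Npr2* stood there at 0.547 to 1.59 CPM and at 1.96 to 8.61 in L-Alv-like barcodes, the highest from OVX with 32 barcodes. The share of L-Hor-like barcodes with a *Npr2* UMI was 0.334% to 1.67%, against 5.03% to 9.13% of fibroblast-like barcodes. Among fibroblast subsets *Npr2* ran from 4.53 CPM in subset 3 to 17.6 in subset 6.

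*Npr3*, the clearance receptor, was the sparsest of the 4, with 96 UMIs over all barcodes. *Npr3*, ENSMUSG00000022206, lies on chromosome 15 from 11839896 to 11907287 on the reverse strand with 9 exons, and *Gm5144* overlaps it on the other strand. Endothelial-like barcodes held 2, 2, 10, 1 and 2 UMIs from OVX to OVX_E2_P4_PBDE, or 7.79, 4.29, 15.9, 5.51 and 5.92 CPM. L-Alv-like barcodes held 0, 3, 7, 10 and 1 UMIs, and both luminal barcodes 2, 14, 12, 12 and 5. The summed endothelial-like level was 5.48 times that of L-Alv-like barcodes (2.72 to 10.9). Of the 17 endothelial-like UMIs, 13 lay in the 97 barcodes of subset 1, led by *Car4*, at 16.1 CPM (8.57 to 27.5), and 4 in the 137 barcodes of subset 0, at 3.76 CPM (1.02 to 9.62). *Npr1* was even between these 2 subsets, at 92.9 and 90.1 CPM.

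Summed over libraries, *Npr3* and *Nppc* lay on opposite sides of the luminal epithelium. *Npr3* had 21 UMIs in 1082 L-Alv-like barcodes and 0 in 2538 L-Hor-like barcodes, which allows up to 0.125 CPM in the latter. The L-Alv-like level, 1.66 CPM, was 13.2 times that limit of 3 counts, and the exact 95% lower bound of the ratio was 9.85. For *Nppc*, the summed L-Hor-like level was 35.6-fold that of L-Alv-like barcodes (16.2 to 97.6). Of the 404 L-Hor-like UMIs behind it, 347 came from OVX_E2_P4, the library by which *Nppc* was chosen. In single libraries the interval lay above 1 in OVX_E2_P4 and OVX_E2_PBDE. It included 1 in OVX, OVX_E2 and OVX_E2_P4_PBDE. Too few *Npr3* UMIs were counted to compare treatments.

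Pearson correlations of log2(CPM + 1) over 38 sums, each of 1 compartment in 1 library with at least 30 barcodes, described which of 14579 genes were most like each member. These sums share libraries, and compartments differ in depth. *Nppc* was most like *Padi1* (0.766), *Cntfr* (0.749), *Glis1* (0.729), *Trim15* (0.719) and *Trim29* (0.718). *Npr1* was most like *Apbb2* (0.928), *Heg1* (0.911), *Gng11*, *Tns1* and *Angptl2* (0.909 each). *Npr2* was most like *Ppfibp1* (0.933), *Fndc3b* (0.926), *Cryab* (0.911), *Dennd5b* (0.904) and *Calu* (0.899). *Npr3* was most like 4931406P16Rik (0.902), *Cox4i2* (0.887), *Stc1* (0.886), *Mdga2* (0.87) and C130074G19Rik (0.869).

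A list of 36 genes of natriuretic peptide and cGMP signalling, the 4 members included, was read by role. The other ligands were rare: *Nppb*, the B-type peptide, had 31 UMIs, *Ostn* had 6, and *Nppa*, the atrial peptide, had none. Of the enzymes, *Furin*, a protease that cleaves the C-type precursor, stood highest in hematopoietic-like barcodes at 101 CPM. *Mme*, the peptidase neprilysin that degrades natriuretic peptides, stood at 79.3 CPM in basal-like and 33.5 in fibroblast-like barcodes. The nitric oxide branch was highest in endothelial-like barcodes, whose clusters also carried pericyte markers. The soluble cyclase subunits *Gucy1a3* and *Gucy1b3* stood at 72.1 and 52.9 CPM there, against 6.74 and 8.48 in basal-like barcodes. The nitric oxide synthase *Nos3* stood at 16.6 CPM in endothelial-like barcodes. *Nos1* stood at 9.61 CPM there and at 4.86 in fibroblast-like barcodes, which held 215 of its 266 UMIs.

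The phosphodiesterases, which break down cyclic nucleotides, were divided between compartments. *Pde2a* stood at 107 CPM, *Pde5a* at 50.2 and *Pde10a* at 48.6 in endothelial-like barcodes. *Pde1a* was highest in fibroblast-like barcodes at 18.9 CPM, *Pde9a* in L-Alv-like barcodes at 13.1 CPM and *Pde11a* in L-Hor-like barcodes at 5.05 CPM. The interval of *Pde11a* there, 4.19 to 6.03, overlapped that of fibroblast-like barcodes, at 4 CPM (3.43 to 4.64). Its L-Hor-like place rested on OVX_E2_P4_PBDE, with 44 of 121 UMIs. The fibroblast-like level was higher in OVX (6.19 against 3.88 CPM) and in OVX_E2_P4 (5.16 against 2.71). The kinase *Prkg1*, which cGMP activates, was highest in basal-like barcodes at 16.1 CPM. Of the 28 listed genes with at least 50 UMIs, 15 were highest in endothelial-like barcodes, 4 in fibroblast-like, 3 in hematopoietic-like, 2 in basal-like, 2 in L-Hor-like, and 1 each in L-Alv-like and proliferating-like barcodes. The 3 receptors of the family were among the 15. Of all 14551 genes with that many UMIs, 31.3% were highest in endothelial-like barcodes, so the count for the list is a description.

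*Nppc* and *Pde11a* were the listed genes called at 2-fold in L-Hor-like barcodes. *Nppc* was chosen by its differences and had enough UMIs only through OVX_E2_P4. Few other listed genes had enough UMIs, so the counts are a description. Between OVX_E2_P4 and OVX_E2, 7 had enough UMIs, and 1, *Nppc*, was higher and none lower. Of all genes, 0.839% were higher and 0.613% lower. Between OVX_E2_P4_PBDE and OVX_E2_P4, *Nppc* was lower and *Pde11a*, which degrades both cAMP and cGMP, was higher, out of 7. Of all genes, 0.64% were higher and 2.13% lower. *Pde11a* stood at 12 CPM in OVX_E2_P4_PBDE (44 UMIs), 2.71 in OVX_E2_P4 (20 UMIs) and 3.65 in OVX_E2_PBDE (26 UMIs). Its ratios were 4.44 (2.56 to 7.95) and 3.3 (1.99 to 5.58), and it was the only 1 of 6 genes called in OVX_E2_P4_PBDE against OVX_E2_PBDE. In that contrast 0.979% of all genes were higher and 0.725% lower. In both contrasts *Pde11a* had enough UMIs only through the 44 of OVX_E2_P4_PBDE, the library where it was highest. Between OVX_E2_P4 and OVX_E2, with 20 and 28 UMIs, it had too few for a call. Its calls are thus a description as well. None of 5 genes was called for OVX_E2 to OVX, against 1.74% of all genes higher and 7.76% lower. None of 6 was called for OVX_E2_PBDE to OVX_E2, against 0.393% higher and 1.21% lower. *Furin*, *Vasp* and *Pde5a* were lower with PBDEs in both pairs without reaching 2-fold. The share of all genes with falls of this size was not counted. Without and with progesterone, the ratios were 0.707 (0.585 to 0.855) and 0.643 (0.513 to 0.801) for *Furin*, 0.769 (0.68 to 0.87) and 0.793 (0.681 to 0.922) for *Vasp*, a substrate of cGMP-dependent kinase, and 0.686 (0.48 to 0.98) and 0.623 (0.396 to 0.953) for *Pde5a*. For *Ide* they were 0.768 (0.612 to 0.964) and 1.03 (0.785 to 1.35). *Abcc5* lay above 1 in both pairs, at 1.08 (0.751 to 1.57) and 1.39 (0.923 to 2.07), with intervals that included 1. *Pde11a* stood at 0.657 (0.37 to 1.16) without progesterone and at 4.44 with it. Falls below 1 that did not reach 2-fold were not limited to PBDEs. For OVX_E2_P4 to OVX_E2, *Vasp* gave 0.835 (0.741 to 0.942) and *Ide* 0.738 (0.588 to 0.926). *Furin*, at 1.03 (0.868 to 1.23), and *Pde5a*, at 0.96 (0.694 to 1.33), had intervals that included 1 there.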

How the data were processed

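Glands were dissociated, dead cells were removed, and about 4000 cells per library were loaded for Chromium 3′ sequencing. The authors aligned reads to mm10 and counted UMIs with Cell Ranger 2.0.0, per the submitters' processing notes, and deposited the filtered raw counts, 1 matrix per library. Cell calling before deposit left no barcode under 3374 UMIs.

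From these counts, barcodes with at least 500 genes, at least 1000 UMIs and at most 10% mitochondrial UMIs were kept. Each library was clustered in Seurat 5.3.0 (R 4.3.3) with 2000 variable genes, 10 principal components, 20 neighbours and resolution 0.3 (OVX) or 0.5 (others), without the 36-gene list, members included, and *Pgr* (37 genes). Clusters were named from marker scores of at least 0.25, a limit set after the clusters were seen. No barcode was removed as a doublet. Clusters with both luminal programs, which may hold doublets, were kept apart, and the 20% of barcodes with the highest Scrublet score (scanpy 1.11.5) were left out as an alternative. Subsets came from all libraries together at resolution 0.5.

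UMIs were summed and scaled to 1000000 (CPM). Poisson, Clopper-Pearson and conditional binomial intervals at 95% came from scipy 1.17.1 (Python 3.11.15), and cover counting error only. A count of 0 was given the limit that 3 counts allow. A 2-fold call needed 50 UMIs over both libraries, and 1 UMI was added to each sum for the calls. The ratio intervals and the likeness ranking were tested on simulated data. The genes named were the 4 members, the list, *Pgr* and *Esr1*, and the 5 genes most like a member. Other genes were named where they lead a subset or mark a compartment. Members, lists and comparisons were chosen with earlier results of these data known.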

Additional observations from a re-analysis of the deposited data

Results flagged for a closer look

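The *Nppc* ratio for adding progesterone differed in size between feeds, in the readout by which the gene was chosen. In L-Hor-like barcodes OVX_E2_P4 to OVX_E2 was 18.3 (10.5 to 34.6) on control food, and OVX_E2_P4_PBDE to OVX_E2_PBDE was 0.488 (0.18 to 1.14) on PBDE food. In both luminal barcodes the same ratios were 2.9 (2.21 to 3.84) and 0.725 (0.412 to 1.24). Read the other way, adding PBDEs gave 1.52 (0.764 to 3.2) without progesterone and 0.0407 (0.0162 to 0.0848) with it. On PBDE food, and for PBDEs without progesterone, the intervals include 1, so that no direction is shown there. The intervals of each pair did not overlap, but with 1 library per group the difference was not tested, and both ways of reading it use the same 4 libraries.

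In OVX_E2_P4_PBDE, 22 barcodes were given no compartment, and their *Nppc* level was 29.7 CPM (10.9 to 64.6), above that of every named compartment of that library. Their cluster scored 0.58 for L-Hor and 0.29 for fibroblast markers, both above the limit of 0.25, so it took no single name. All 6 UMIs came from 1 barcode, beside 7 UMIs in the L-Hor-like barcodes of that library. The 75 unnamed barcodes of OVX held none.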

How the results depend on the processing

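Of the 5 *Nppc* ratios in L-Hor-like barcodes, 4 left their counting interval under at least 1 alternative, and OVX_E2_P4_PBDE to OVX_E2_PBDE did not, at 0.257 to 0.787. With both luminal barcodes added, OVX_E2_P4 to OVX_E2 fell from 18.3 to 5.73, OVX_E2 to OVX moved from 0.221 to 0.974, and OVX_E2_PBDE to OVX_E2 moved from 1.52 to 0.606, below 1. Over all epithelial barcodes these ratios were 4.99, 0.763 and 0.726, and OVX_E2_P4_PBDE to OVX_E2_P4 was 0.114. With the fibroblast-like level subtracted, as if all of it were free RNA, OVX_E2_P4 to OVX_E2 was 34.9 and OVX_E2_P4_PBDE to OVX_E2_P4 was 0.0155. How much of that level is free RNA was not tested. Of the settings added after the data were seen, both luminal barcodes alone gave 2.9 for OVX_E2_P4 to OVX_E2, and leaving out the barcode with the most *Nppc* gave 43.4. Over all alternatives OVX_E2_P4 to OVX_E2 stayed between 2.9 and 43.4 and OVX_E2_P4_PBDE to OVX_E2_P4 between 0.0155 and 0.114, so that their directions held. The causes of these moves were not tested.

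The ratio of *Npr1* in endothelial-like to fibroblast-like barcodes was 1.82 with at most 5% mitochondrial UMIs, against 2.49. With a pseudocount of 10 CPM, 2 of the 5 genes most like *Nppc* were kept. No paired analysis was possible because each group has 1 library. Depth limits *Npr3*, *Npr2* in endothelial-like barcodes and *Nppc* in L-Hor-like and basal-like barcodes outside OVX_E2_P4, each of which rests on 28 or fewer UMIs in a library.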
